A study of Homo sapiens and Mus musculus with 24 samples.

Results

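Semaphorins, plexins and neuropilins were followed by RNA sequencing in MCF10A, an immortalised and non-tumorigenic line of human breast epithelium. The members are the protein-coding genes with a symbol of the SEMA3 to SEMA7, PLXNA to PLXND or NRP series, which gave 31 of the 58434 gene identifiers in the tables. They are 20 semaphorins, 9 plexins and 2 neuropilins. Membership follows the symbols alone, but the family was chosen with earlier results of these data known. A filter on low counts passed 29 of the 31, which were tested among 21079 genes in all, while SEMA3D and SEMA5B did not pass.

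Semaphorins are guidance ligands: class 3 members are secreted, classes 4 to 6 span the membrane and SEMA7A is held by a lipid anchor. Plexins are their main receptors and act on R-Ras and Rap GTPases through a cytoplasmic GAP domain, which changes adhesion and the actin skeleton. Most class 3 semaphorins need a neuropilin beside a plexin A or D, neuropilins also bind VEGF, and in epithelia these ligands are known for roles in branching, migration and contact between neighbouring cells.

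The knock-in (KI) cells are heterozygous for PIK3CA H1047R, a substitution that activates the kinase PI3K alpha, and the parental cells are their isogenic partner from the same supplier (Horizon). Each line received BYL719 (alpelisib, an inhibitor of PI3K alpha) at 1 uM or its solvent DMSO, with RNA taken at 4 h. The 4 groups are KI with BYL719, KI with DMSO, parental with BYL719 and parental with DMSO, of 3 libraries each. The labels do not say whether the 3 libraries are separate cultures, so p-values measure the spread between these libraries. Since the labels name 1 line per genotype, clone and genotype cannot be told apart.

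Library totals were 120177015 to 162755457 estimated read pairs. All 12 epithelial and basal markers reached 1 TPM (Salmon's level per transcript length) as a group mean, and their summed level was 6395 to 6660 TPM in KI BYL719, 5924 to 6687 TPM in KI DMSO, 6773 to 7282 TPM in parental BYL719 and 7068 to 7164 TPM in parental DMSO libraries. By group mean none of 6 endothelial markers reached 1 TPM, nor did PTPRC, CD3E, SNAP25, GFAP or SOX10; of the other lists, COL1A1, CD14, LCP1, TUBB3 and MBP did. Replicate 2 of KI DMSO stood apart, at -54.1 on the second principal component against -14.1 and -17.1 for its partners. Of the 29 tested members, 21 were lowest there among KI DMSO libraries, including 9 of 9 plexins, against 47.8% of all genes tested, and the members' median log2 ratio to the mean of its partners was -0.29. PIK3CA itself averaged 70.5 ± 1.55 CPM in KI BYL719, 40.2 ± 5.9 CPM in KI DMSO, 69 ± 2.81 CPM in parental BYL719 and 57.8 ± 1.69 CPM in parental DMSO cells (SD, n = 3 each), a level that does not check a base change.

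Plexins B1 and B2 were the most abundant members per length in parental DMSO cells, where PLXNB1 averaged 106 TPM and PLXNB2 87 TPM. Coding transcripts held 21.6% of PLXNB1 TPM there, against 80.9% for PLXNB2 and 23.7% for PLXNA3. The order by TPM therefore includes transcripts that are not annotated as coding. PLXNB1 is the receptor of SEMA4D, and PLXNB2 binds SEMA4C. SEMA3F (54.5 TPM), SEMA3C (50.9 TPM), PLXNA1 (40.8 TPM), PLXNA3 (32.4 TPM) and SEMA4B (31.8 TPM) came next; SEMA3F and SEMA3C were not separated by every library, nor were PLXNA3 and SEMA4B. NRP1 followed at 16.6 TPM and NRP2, which was not separated from its neighbours in that order, at 12.2 TPM. In that group 12 members reached 10 TPM, 11 lay between 1 and 10 TPM and 8 were below 1 TPM. SEMA3C stood higher in the order of KI BYL719 cells, where its mean of 91.1 TPM was second to the 92.3 TPM of PLXNB1 and the libraries of that pair were not separated. Coding transcripts held 71.6% of SEMA3C TPM and 19.8% of PLXNB1 TPM in KI BYL719 cells.

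**Figure D1:**
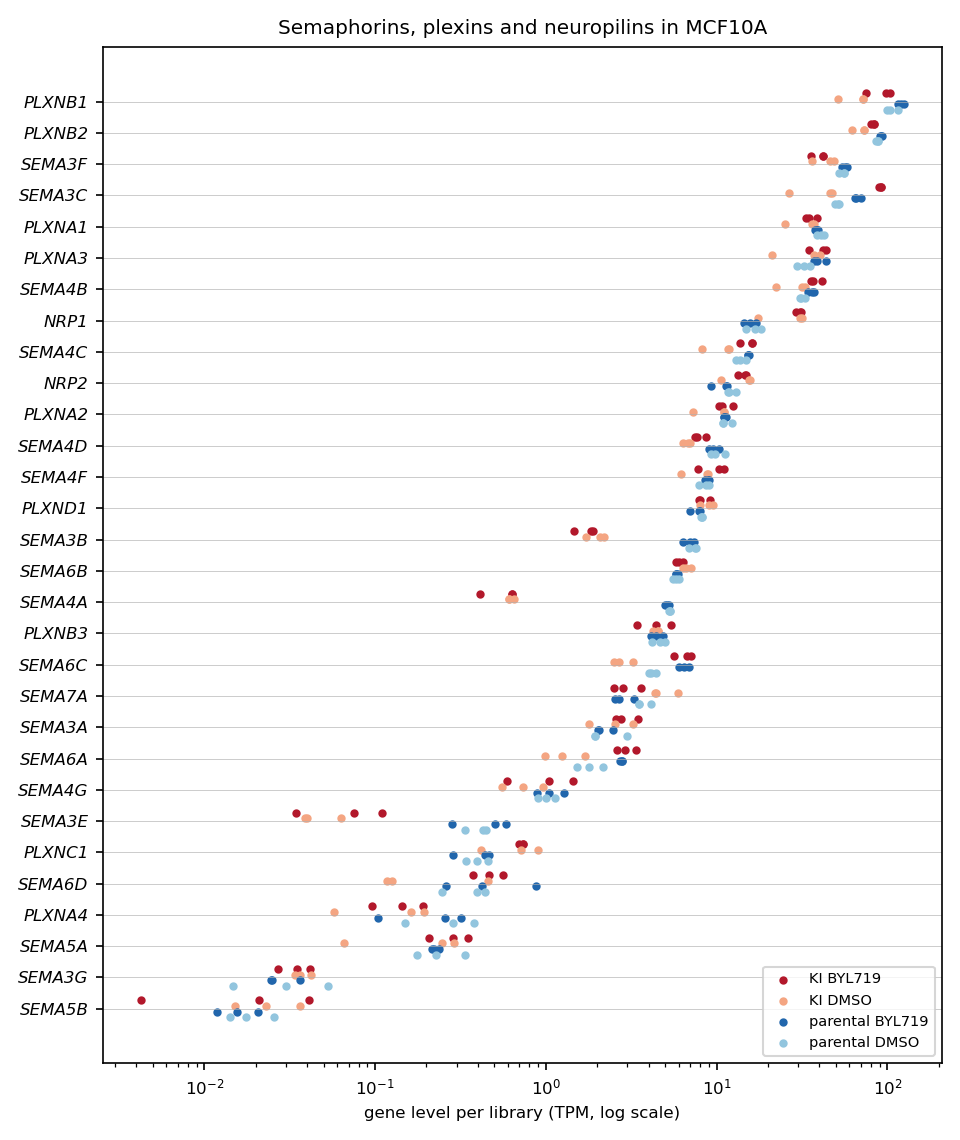
Level of each member per library in TPM (log axis), with 3 points per group and the groups from top to bottom KI BYL719, KI DMSO, parental BYL719 and parental DMSO. Rows are ordered by the parental DMSO mean, and SEMA3D is left out because it is listed at 0 in some libraries; SEMA4A, SEMA3B and SEMA3E have both KI groups far to the left of both parental groups.

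Summed over the family, the 20 semaphorins came to 228 ± 5.2 TPM in KI BYL719, 159.9 ± 29.3 TPM in KI DMSO, 227 ± 5.5 TPM in parental BYL719 and 202 ± 5.62 TPM in parental DMSO cells (SD, n = 3 each). The 9 plexins came to 275 ± 19.7 TPM in KI BYL719, 224 ± 38.9 TPM in KI DMSO, 314 ± 1.79 TPM in parental BYL719 and 291 ± 13.1 TPM in parental DMSO cells. The 2 neuropilins came to 44.7 ± 0.815 TPM in KI BYL719, 40.6 ± 10.8 TPM in KI DMSO, 26.4 ± 1.87 TPM in parental BYL719 and 28.8 ± 1.15 TPM in parental DMSO cells. The mean neuropilin sum was thus larger in KI than in parental cells with either treatment, although replicate 2 of KI DMSO, at 28.1 TPM, lay within the parental range of 27.8 to 30.0 TPM. SEMA3C made up 67.1% ± 2.15 of the summed class 3 TPM in KI BYL719 cells, 44.7% ± 4.45 in KI DMSO, 50.3% ± 1.18 in parental BYL719 and 44.1% ± 1.12 in parental DMSO cells.

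Between the lines in DMSO, 18 of the 29 tested members were called at an adjusted p under 0.05, against 34.2% of all genes tested. Of these, 5 rose in KI cells (17.0% of all genes tested) and 13 fell (17.2%). The CPM ranges of KI DMSO and parental DMSO libraries did not overlap for 24 members (45.7% of all genes). The median log2 fold change was -0.268 over the tested members and 0.0049 over all genes tested. Most members with a negative value lay nearer to no change when KI DMSO replicate 2 was left out. The median was not computed without that library. Under BYL719, 12 members differed between KI and parental cells (22.3% of all genes), of which 5 rose (11.4%) and 7 fell (10.9%); 16 had ranges that did not overlap (46.0%). Adjusted p-values come from edgeR's quasi-likelihood test with Benjamini-Hochberg adjustment over all genes tested, and CPM is a gene's estimated read pairs scaled to the library's total. Below, the order and overlap of libraries, groups and lines are given in CPM unless TPM or a share is named. In bulk RNA, a change in the share of cells that express a gene and a change in RNA per cell cannot be told apart.

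BYL719 gave calls for 14 members in KI cells (28.3% of all genes), with 10 that rose (15.1%) and 4 that fell (13.2%), and 13 had ranges that did not overlap between BYL719 and DMSO libraries (38.2%). In parental cells 3 members rose (0.844% of all genes) and none fell (0.588%) by edgeR; this makes 3 called (1.43%), and 7 had an unadjusted p under 0.05 and 15 had ranges that did not overlap (31.5%). DESeq2 likewise called 3 members that rose and 0 that fell there, against 437 genes that rose and 454 that fell of 21070 over all genes. The BYL719 effect itself differed between the lines for 2 members, SEMA3C and SEMA6C, against 2.87% of all genes tested; both were more positive in KI cells (2.08% of all genes) and none was more negative (0.797%). Over the members, 10 had an unadjusted p under 0.05 for that difference. The shares of all genes with an unadjusted p under 0.05 are not given here, so neither this count nor the 7 above has a background. The comparison of the lines in DMSO and that of BYL719 with DMSO in KI cells share the KI DMSO libraries, so a value that is high or low there moves both.

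**Figure D2:**
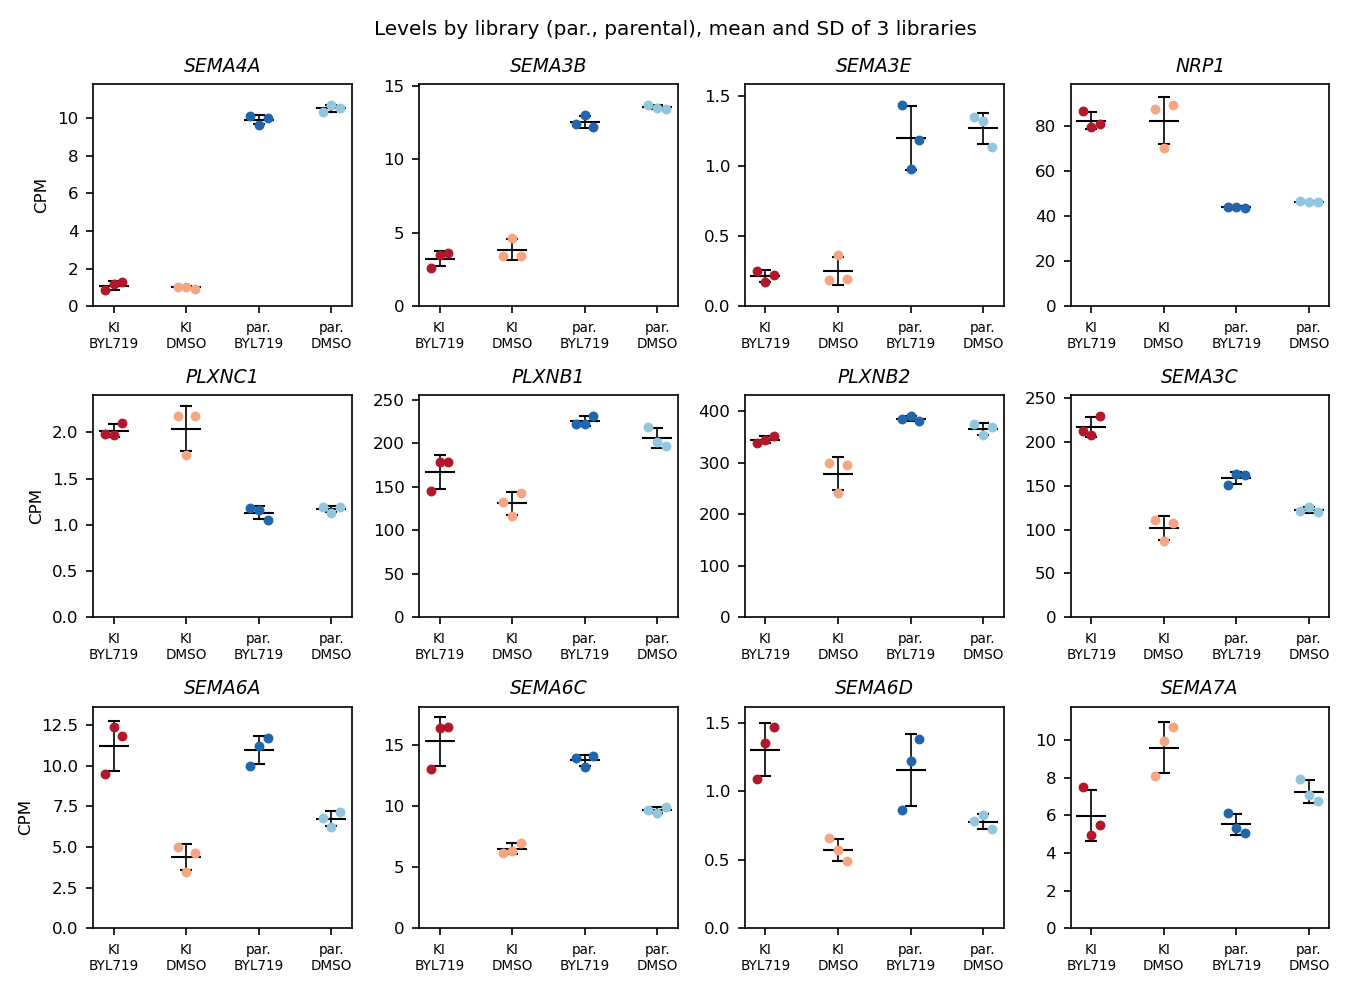
CPM of 12 members in each of the 12 libraries, with the groups from left to right KI BYL719, KI DMSO, parental BYL719 and parental DMSO; the horizontal mark is the mean and the whiskers are 1 SD over 3 libraries, and each vertical axis starts at 0. SEMA4A, SEMA3B and SEMA3E are low in both KI groups, NRP1 and PLXNC1 are high in both, and SEMA3C, SEMA6A, SEMA6C and SEMA6D are higher with BYL719 than with DMSO in each line.

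SEMA4A, a transmembrane ligand of plexins B and D1 that is best known from immune cells, had the largest difference between the lines among the members. The gene lies at chr1:156147366-156177752 on the plus strand (GRCh38, GENCODE 29). Its level was 0.844, 1.17 and 1.27 CPM in KI BYL719 libraries, 1.03, 1.05 and 0.939 CPM in KI DMSO libraries, 10.1, 9.62 and 10.0 CPM in parental BYL719 libraries, and 10.3, 10.7 and 10.5 CPM in parental DMSO libraries. Every KI library was low and every parental library high, with no overlap, and the KI BYL719 and KI DMSO ranges overlapped. The log2 fold change of KI over parental was -3.35 ± 0.12 (SE) in DMSO (adjusted p = 1.2e-09) and -3.15 ± 0.118 under BYL719 (adjusted p = 1.89e-09). Its leading transcript, SEMA4A-204, which codes for protein, averaged 0.365 ± 0.0525 TPM in KI BYL719, 0.328 ± 0.0277 TPM in KI DMSO, 3.45 ± 0.211 TPM in parental BYL719 and 3.53 ± 0.176 TPM in parental DMSO cells, so the difference also held for that transcript.

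The stretch of 250 bases upstream of an annotated RefSeq transcript start is printed here for SEMA4A, the member that differed most between the lines, for SEMA3C and SEMA6C, whose response to BYL719 differed between the lines, and for SEMA4B, the member called with BYL719 whose window held the forkhead (FOXO) motif searched for. Sequences are from RefSeq (GRCh38.p14), 5′ to 3′ on the gene's own strand, each from the window nearest to the start of the gene's leading transcript. They lie at chr1:156153335-156153584 on the plus strand for SEMA4A, chr7:80919052-80919301 on the minus strand for SEMA3C, chr1:151146632-151146881 on the minus strand for SEMA6C and chr15:90184670-90184919 on the plus strand for SEMA4B. The SEMA4A, SEMA3C and SEMA4B stretches lie inside the annotated span of their gene, upstream of a start other than its outermost one. Capitals mark the match to the FOXO motif, which is read on the opposite strand.
SEMA4A: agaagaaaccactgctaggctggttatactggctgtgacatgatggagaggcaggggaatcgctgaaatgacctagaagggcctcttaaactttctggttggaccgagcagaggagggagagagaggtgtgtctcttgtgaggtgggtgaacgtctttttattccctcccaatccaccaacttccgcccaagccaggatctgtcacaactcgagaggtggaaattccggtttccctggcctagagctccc
SEMA3C: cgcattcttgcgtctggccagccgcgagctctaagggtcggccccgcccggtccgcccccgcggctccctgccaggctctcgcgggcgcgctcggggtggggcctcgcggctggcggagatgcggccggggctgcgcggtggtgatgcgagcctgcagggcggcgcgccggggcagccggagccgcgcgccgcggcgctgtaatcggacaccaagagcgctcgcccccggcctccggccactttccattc
SEMA6C: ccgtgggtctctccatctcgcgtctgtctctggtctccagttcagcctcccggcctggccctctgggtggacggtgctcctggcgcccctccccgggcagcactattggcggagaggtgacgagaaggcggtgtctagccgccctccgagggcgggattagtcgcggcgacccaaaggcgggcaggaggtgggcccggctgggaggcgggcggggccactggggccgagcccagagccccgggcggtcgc
SEMA4B: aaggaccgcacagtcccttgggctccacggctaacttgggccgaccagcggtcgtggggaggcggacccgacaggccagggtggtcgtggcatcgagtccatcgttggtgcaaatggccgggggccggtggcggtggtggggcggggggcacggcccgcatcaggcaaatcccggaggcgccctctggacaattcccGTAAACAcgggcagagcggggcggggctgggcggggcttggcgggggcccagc

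The SEMA4A stretch held 6 CpG and was 52.8% G and C, against 39 CpG and 77.6% for SEMA3C, 24 CpG and 73.2% for SEMA6C, and 24 CpG and 72% for SEMA4B. RefSeq windows of 300 bases (these 250 and the 50 that follow) were matched for 27 of the 31 members, as 48 windows; NRP1, SEMA6B, SEMA3A and SEMA6A had no entry. The motif TGTTTAC of FOXO factors, searched on both strands, was found in 3 of the 48 windows (SEMA3E, SEMA4B and SEMA5B) and in 3.42% of all 35116 windows. CACCTG, an E-box bound by ZEB and SNAIL factors, was in 8 of the 48 windows, from 7 genes (PLXNB1, PLXNB3, SEMA3B, SEMA3F, SEMA3G, SEMA4A and SEMA4F), and in 20.6% of all windows. The SEMA4A stretch printed above holds no such match, so that of SEMA4A lies outside the printed bases. TGANTCA, the AP-1 motif, was in 1, that of PLXNC1, and in 7.71% of all windows. These matches describe the letters of the windows only.

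Among the secreted class 3 semaphorins, 4 of 6 tested members fell and 1 rose in KI cells in DMSO. SEMA3B and SEMA3F, which sit near each other on the short arm of chromosome 3 and are studied as inhibitors of tumour growth, and SEMA3E, which binds PLXND1 without a neuropilin, were all lower. SEMA3B (chr3:50267558-50277546, plus strand) measured 2.63, 3.47 and 3.63 CPM in KI BYL719 libraries, 3.42, 4.65 and 3.43 CPM in KI DMSO libraries, 12.4, 13 and 12.2 CPM in parental BYL719 libraries and 13.7, 13.5 and 13.4 CPM in parental DMSO libraries. No KI library reached the lowest parental one. The log2 fold change of KI over parental was -1.79 ± 0.132 in DMSO (adjusted p = 6.53e-07) and -1.92 ± 0.134 under BYL719 (adjusted p = 4.19e-07).

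SEMA3E was rare, with 89 estimated pairs summed over the KI BYL719 libraries, 100 over KI DMSO, 464 over parental BYL719 and 537 over parental DMSO libraries. Its level was 0.253, 0.172 and 0.226 CPM in KI BYL719, 0.191, 0.37 and 0.198 CPM in KI DMSO, 1.44, 0.983 and 1.19 CPM in parental BYL719, and 1.35, 1.32 and 1.14 CPM in parental DMSO libraries. Again the lines did not overlap under either treatment, and KI over parental was -2.30 ± 0.244 in DMSO (adjusted p = 1.49e-05) and -2.44 ± 0.248 under BYL719 (adjusted p = 1.21e-05) on the log2 scale. SEMA3F, the ligand that prefers NRP2, is an abundant member and its differences were smaller. Levels of SEMA3F were 79.8, 80.2 and 73.4 CPM in KI BYL719, 90.4, 84.2 and 88.3 CPM in KI DMSO, 108, 105 and 104 CPM in parental BYL719, and 107, 101 and 107 CPM in parental DMSO libraries. It fell in KI cells by 0.24 on the log2 scale in DMSO (SE 0.0475, adjusted p = 0.00217) and by 0.42 under BYL719 (SE 0.0476, adjusted p = 3.12e-05).

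SEMA3A, the prototype collapsing ligand, which binds NRP1, rose in KI cells under both treatments. Libraries held 9.11, 8.83 and 9.36 CPM of SEMA3A in KI BYL719, 9.58, 7.13 and 8.78 CPM in KI DMSO, 7.16, 6.96 and 6.77 CPM in parental BYL719, and 6.75, 6.64 and 6.82 CPM in parental DMSO. The groups did not overlap between the lines, although KI DMSO replicate 2 came close to the parental level. The log2 fold change of KI over parental was 0.36 ± 0.0844 in DMSO (adjusted p = 0.00568) and 0.41 ± 0.0843 under BYL719 (adjusted p = 0.00317). Both calls were lost when the effective transcript lengths entered the fit as offsets (0.18 with adjusted p = 0.53 in DMSO, 0.44 with adjusted p = 0.149 under BYL719).

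SEMA3C, a secreted ligand of NRP1 and NRP2 that is known for growth and migration in breast and prostate epithelium, had opposite calls between the lines in the 2 treatments. The gene lies at chr7:80742538-80922359 on the minus strand. Its level was 213, 208 and 230.1 CPM in KI BYL719 libraries, 111, 86.7 and 108 CPM in KI DMSO libraries, 151, 164 and 162 CPM in parental BYL719 libraries, and 121, 126 and 120.4 CPM in parental DMSO libraries. All KI BYL719 libraries were above all parental BYL719 libraries, and all KI DMSO libraries were below all parental DMSO libraries. KI over parental was -0.24 ± 0.073 in DMSO (adjusted p = 0.0213) and 0.48 ± 0.0729 under BYL719 (adjusted p = 0.000366). In DMSO, SEMA3C missed the threshold when parental DMSO replicate 2 (adjusted p = 0.0777) or 3 (adjusted p = 0.054) was left out, and with effective-length offsets (adjusted p = 0.0606); without KI DMSO replicate 2 it was -0.15 (adjusted p = 0.0116).

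Of the 6 class 4 semaphorins, which are transmembrane ligands mostly of plexins B, 3 fell in KI cells in DMSO (SEMA4A, SEMA4C and SEMA4D) and none rose. SEMA4D, the ligand of PLXNB1, had 19, 19.8 and 21.4 CPM in KI BYL719, 19.1, 14.6 and 18 CPM in KI DMSO, 25.4, 23.9 and 24.4 CPM in parental BYL719, and 23.2, 22.7 and 24.9 CPM in parental DMSO libraries. The lines did not overlap, and SEMA4D fell by 0.43 on the log2 scale in DMSO (SE 0.0826, adjusted p = 0.00156) and by 0.26 under BYL719 (SE 0.0823, adjusted p = 0.0376). Under BYL719 that call was lost without KI BYL719 replicate 1 or 2 or any 1 parental BYL719 library (adjusted p up to 0.107). SEMA4C, the ligand of PLXNB2, had 26.9, 30.0 and 32.3 CPM in KI BYL719, 20.8, 19.9 and 22.5 CPM in KI DMSO, 29.3, 30.8 and 30.1 CPM in parental BYL719, and 28.7, 27.1 and 25.4 CPM in parental DMSO libraries. It fell in KI cells by 0.33 in DMSO (SE 0.0666, adjusted p = 0.00201), while the lines overlapped under BYL719 (log2 fold change 0.0095, adjusted p = 0.947).

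SEMA4B, the most abundant class 4 member, and SEMA4F were not called between the lines. SEMA4B had 91.3, 84.7 and 82.2 CPM in KI BYL719, 72.3, 59.1 and 72.4 CPM in KI DMSO, 79.6, 79.9 and 78.5 CPM in parental BYL719, and 75.3, 70.1 and 71.8 CPM in parental DMSO libraries, a log2 difference of -0.07 ± 0.0668 in DMSO (adjusted p = 0.479). Under BYL719 the lines did not overlap for SEMA4B and its log2 fold change was 0.14 ± 0.0667 (adjusted p = 0.157), called when only the BYL719 libraries were fitted (adjusted p = 0.018) and without KI DMSO replicate 2 (adjusted p = 0.0146). SEMA4F had 24, 22.3 and 23 CPM in KI BYL719, 21.2, 19.6 and 20.4 CPM in KI DMSO, 22.3, 22.2 and 21.4 CPM in parental BYL719, and 21.9, 21.9 and 21.5 CPM in parental DMSO libraries.

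Class 6 semaphorins, transmembrane ligands of plexins A, and SEMA7A, the lipid-anchored ligand of PLXNC1 and integrin beta 1, changed between the lines in DMSO in both directions. SEMA6A (chr5:116443616-116574934, minus strand), which binds PLXNA2 and PLXNA4, had 9.47, 12.4 and 11.8 CPM in KI BYL719, 4.99, 3.46 and 4.63 CPM in KI DMSO, 10.0, 11.2 and 11.7 CPM in parental BYL719, and 6.79, 6.26 and 7.17 CPM in parental DMSO libraries. SEMA6C (chr1:151131685-151146664, minus strand) had 13, 16.4 and 16.5 CPM in KI BYL719, 6.18, 6.31 and 7.02 CPM in KI DMSO, 13.9, 13.2 and 14.1 CPM in parental BYL719, and 9.7, 9.42 and 9.92 CPM in parental DMSO libraries. For both genes KI DMSO was the lowest of the 4 groups, with no overlap with parental DMSO, while the lines overlapped under BYL719. In DMSO, SEMA6A fell by 0.60 (SE 0.129, adjusted p = 0.00324) and SEMA6C by 0.55 (SE 0.0867, adjusted p = 0.000386) in KI cells on the log2 scale; with effective-length offsets SEMA6A had an adjusted p of 0.0526.

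SEMA6B, a ligand of PLXNA4, had 13.7, 14.9 and 12 CPM in KI BYL719, 16.1, 18.1 and 15 CPM in KI DMSO, 13.6, 13 and 13 CPM in parental BYL719, and 13.9, 13.4 and 13.2 CPM in parental DMSO libraries. KI DMSO was the highest group and the only one apart from the others, and SEMA6B rose there by 0.31 ± 0.0859 over parental DMSO (adjusted p = 0.0151; 0.0501 without parental DMSO replicate 3). SEMA7A had 7.5, 4.95 and 5.46 CPM in KI BYL719, 8.09, 9.95 and 10.7 CPM in KI DMSO, 6.12, 5.34 and 5.08 CPM in parental BYL719, and 7.93, 7.09 and 6.73 CPM in parental DMSO libraries. It rose in KI DMSO over parental DMSO by 0.43 ± 0.149 (adjusted p = 0.0417), a call that was lost without KI BYL719 replicate 3, KI DMSO replicate 2 or 3, parental BYL719 replicate 2 or 3, or any 1 parental DMSO library (adjusted p for SEMA7A up to 0.138). SEMA6D, a ligand of PLXNA1, was low, at 1.09, 1.35 and 1.47 CPM in KI BYL719, 0.655, 0.572 and 0.493 CPM in KI DMSO, 0.865, 1.22 and 1.38 CPM in parental BYL719, and 0.78, 0.829 and 0.726 CPM in parental DMSO libraries. Between the lines in DMSO its log2 fold change was -0.41 ± 0.187 (adjusted p = 0.11).

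**Figure D3:**
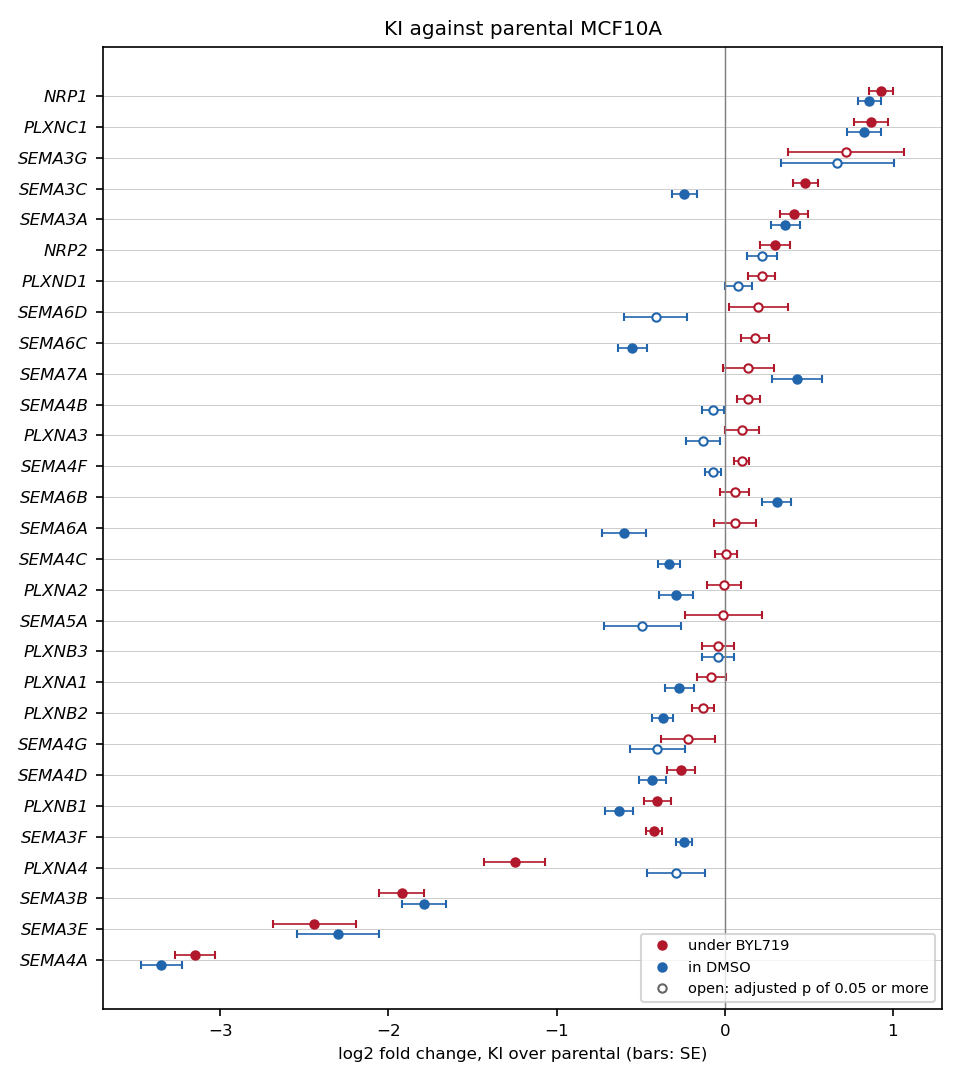
Log2 fold change of KI over parental cells for the 29 tested members, under BYL719 (upper point of each pair) and in DMSO (lower point), with bars of 1 SE; filled points have an adjusted p under 0.05. SEMA4A, SEMA3E and SEMA3B lie far to the left under both treatments, NRP1 and PLXNC1 to the right, and SEMA3C changes side, at 0.48 under BYL719 and -0.24 in DMSO.

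On the receptor side, 4 of 9 plexins fell and 1 rose in KI cells in DMSO, and NRP1 rose. NRP1 (chr10:33177492-33336262, minus strand), the co-receptor of SEMA3A and of VEGFA, had 86.8, 79.9 and 81.2 CPM in KI BYL719, 87.7, 70.5 and 89.7 CPM in KI DMSO, 44.3, 44.4 and 43.7 CPM in parental BYL719, and 46.7, 46.5 and 46.2 CPM in parental DMSO libraries. Every KI library was above every parental one in CPM. By TPM, replicate 2 of KI DMSO (17.5 TPM) lay below replicate 2 of parental DMSO (18.1 TPM). The log2 fold change of NRP1 was 0.86 ± 0.0696 in DMSO (adjusted p = 1.46e-06) and 0.93 ± 0.0697 under BYL719 (adjusted p = 8.1e-07). With effective-length offsets it was 0.71 in DMSO (adjusted p = 0.00222). NRP2, the co-receptor of SEMA3F and VEGFC, had 34.1, 30.0 and 30.9 CPM in KI BYL719, 37.5, 28.6 and 38.5 CPM in KI DMSO, 26.7, 26.7 and 25.1 CPM in parental BYL719, and 31.8, 30.0 and 29.8 CPM in parental DMSO libraries. In DMSO the lines overlapped through KI DMSO replicate 2, and the log2 fold change of NRP2 was 0.22 ± 0.0888 (adjusted p = 0.0783); without that library it was 0.33 (adjusted p = 0.00016). Under BYL719 NRP2 rose in KI cells by 0.30 ± 0.0892 (adjusted p = 0.0275), a call lost without KI BYL719 replicate 1 or 3 or any 1 parental BYL719 library (adjusted p up to 0.11).

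PLXNC1, the receptor of SEMA7A, had 1.98, 1.97 and 2.1 CPM in KI BYL719, 2.18, 1.76 and 2.18 CPM in KI DMSO, 1.18, 1.16 and 1.05 CPM in parental BYL719, and 1.19, 1.13 and 1.19 CPM in parental DMSO libraries. It rose in KI cells by 0.83 ± 0.101 in DMSO (adjusted p = 5e-05) and by 0.87 ± 0.102 under BYL719 (adjusted p = 4.34e-05), with no overlap between the lines in CPM. By TPM, replicate 2 of KI DMSO (0.415 TPM) lay within the range of the parental DMSO libraries (0.339 to 0.456 TPM). PLXNC1 overlaps CEP83 on the opposite strand (6.8 to 10.1 TPM), and no source used here says whether libraries kept strand, so reads of the pair cannot be told apart where they overlap.

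PLXNB1 (chr3:48403854-48430051, minus strand) had 145, 179 and 179 CPM in KI BYL719, 133, 117 and 143 CPM in KI DMSO, 222, 222 and 232 CPM in parental BYL719, and 219, 202 and 197 CPM in parental DMSO libraries. PLXNB2 (chr22:50274979-50307627, minus strand) had 338, 344 and 352 CPM in KI BYL719, 299, 241 and 295 CPM in KI DMSO, 384, 391 and 381 CPM in parental BYL719, and 374, 353 and 369 CPM in parental DMSO libraries. For both plexins all KI libraries were below all parental libraries. PLXNB1 fell in KI cells by 0.63 in DMSO (SE 0.0815, adjusted p = 8.13e-05) and by 0.40 under BYL719 (SE 0.0812, adjusted p = 0.00298). PLXNB2 fell by 0.37 in DMSO (SE 0.0631, adjusted p = 0.000722); under BYL719 its log2 fold change was -0.13 ± 0.0631 (adjusted p = 0.165), and -0.14 ± 0.0279 without KI DMSO replicate 2 (adjusted p = 0.000729).

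Plexins A1 to A3, the partners of neuropilins for class 3 ligands, differed less. PLXNA1 had 242, 217 and 219 CPM in KI BYL719, 237, 174 and 229 CPM in KI DMSO, 245, 246 and 239 CPM in parental BYL719, and 272, 251 and 262 CPM in parental DMSO libraries. PLXNA2 had 79.5, 65.6 and 69.4 CPM in KI BYL719, 66.1, 48.9 and 66 CPM in KI DMSO, 73.1, 73.4 and 73 CPM in parental BYL719, and 80.4, 71.9 and 72.8 CPM in parental DMSO libraries. KI DMSO lay below parental DMSO for both, by 0.27 for PLXNA1 (log2 fold change -0.27 ± 0.0871, adjusted p = 0.0311) and 0.29 for PLXNA2 (log2 fold change -0.29 ± 0.0993, adjusted p = 0.0402). PLXNA1 missed the threshold when parental DMSO replicate 1 (adjusted p = 0.101) or 3 (adjusted p = 0.0853) was left out, and PLXNA2 missed it without KI BYL719 replicate 3, KI DMSO replicate 2 or any 1 parental library (adjusted p for PLXNA2 up to 0.15). Without KI DMSO replicate 2, the lowest library for both, the log2 fold change of PLXNA1 was -0.15 (adjusted p = 0.0258) and that of PLXNA2 was -0.17 (adjusted p = 0.117). PLXNA3 had 70.4, 85.2 and 84.6 CPM in KI BYL719, 69.7, 52.1 and 72.1 CPM in KI DMSO, 75, 74.6 and 78.2 CPM in parental BYL719, and 76.7, 69.2 and 69.3 CPM in parental DMSO libraries, and overlapped between the lines under both treatments.

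PLXNA4, a receptor of SEMA6A and SEMA6B, was rare, with 86 estimated pairs over the KI BYL719 libraries, 154 over KI DMSO, 198 over parental BYL719 and 201 over parental DMSO libraries. Its level was 0.176, 0.198 and 0.252 CPM in KI BYL719, 0.393, 0.374 and 0.393 CPM in KI DMSO, 0.466, 0.574 and 0.486 CPM in parental BYL719, and 0.424, 0.481 and 0.546 CPM in parental DMSO libraries. The 3 KI BYL719 libraries were the lowest of the 12, and KI over parental was -1.25 ± 0.182 under BYL719 (adjusted p = 0.000251) and -0.29 ± 0.172 in DMSO (adjusted p = 0.216). With effective-length offsets the value under BYL719 for PLXNA4 was -0.62 (adjusted p = 0.51).

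In KI cells, BYL719 raised 3 of the 4 class 6 semaphorins and SEMA3C by more than any other member. The log2 fold change of BYL719 over DMSO in KI cells was 1.36 ± 0.129 for SEMA6A (adjusted p = 1.29e-05). It was 1.23 ± 0.0867 for SEMA6C (adjusted p = 1.36e-06) and 1.18 ± 0.183 for SEMA6D (adjusted p = 0.000511), and 1.09 ± 0.0736 for SEMA3C (adjusted p = 9.37e-07). The lowest KI BYL719 library was above the highest KI DMSO library for each of these 4 genes. SEMA6D lost its call with effective-length offsets (1.07, adjusted p = 0.153), and the other three kept theirs under every alternative run.

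Smaller rises with BYL719 in KI cells were called for 3 class 4 semaphorins and 3 plexins. On the log2 scale they were 0.49 ± 0.0666 for SEMA4C (adjusted p = 0.000188), 0.34 ± 0.0668 for SEMA4B (adjusted p = 0.00258) and 0.17 ± 0.0457 for SEMA4F (adjusted p = 0.015). Among plexins they were 0.35 ± 0.0813 for PLXNB1 (adjusted p = 0.00704), 0.30 ± 0.0631 for PLXNB2 (adjusted p = 0.00349) and 0.31 ± 0.101 for PLXNA3 (adjusted p = 0.0402). KI DMSO replicate 2 was the lowest library of its group for all 6. Without it the log2 values were 0.45 for SEMA4C, 0.24 for SEMA4B, 0.14 for SEMA4F, 0.27 for PLXNB1 and 0.21 for PLXNB2, all still called, and PLXNA3, whose groups overlapped, was not called (adjusted p = 0.0957). PLXNA3 was also lost without KI BYL719 replicate 2 or 3 or any 1 parental library, and SEMA4F without KI BYL719 replicate 1, KI DMSO replicate 3, parental BYL719 replicate 1 or parental DMSO replicate 1 or 2 (adjusted p for SEMA4F up to 0.11). Fitted on the KI libraries alone, PLXNB1 (adjusted p = 0.0646), PLXNB2 (adjusted p = 0.0524), PLXNA3 (adjusted p = 0.154) and SEMA4F (adjusted p = 0.126) were not called.

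The 4 members that fell with BYL719 in KI cells were PLXNA4, SEMA7A, SEMA6B and SEMA3F. SEMA7A fell by 0.69 on the log2 scale (SE 0.15, adjusted p = 0.00481) and SEMA6B by 0.28 (SE 0.0859, adjusted p = 0.0276), and all KI BYL719 libraries were below all KI DMSO libraries for both. PLXNA4 fell by 0.89 (SE 0.185, adjusted p = 0.00364), and with effective-length offsets its log2 fold change had the opposite sign, at 0.08 (adjusted p = 0.937). SEMA3F fell by 0.18 (SE 0.0476, adjusted p = 0.0155). Without KI BYL719 replicate 3 neither SEMA6B (adjusted p = 0.117) nor SEMA3F (adjusted p = 0.075) was called. Without KI DMSO replicate 2 there were 6 members that fell, with NRP2 at -0.27 (adjusted p = 0.00119) and NRP1 at -0.11 (adjusted p = 0.0415) added. In that fit NRP2 was also called in parental cells, at -0.23 for BYL719 over DMSO (adjusted p = 0.00714).

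In parental cells, SEMA6A, SEMA6C and SEMA3C rose with BYL719, and these 3 were among the 14 called in KI cells. The log2 fold changes of BYL719 over DMSO in parental cells were 0.70 ± 0.126 for SEMA6A (adjusted p = 0.0175), 0.50 ± 0.0852 for SEMA6C (adjusted p = 0.0124) and 0.37 ± 0.0729 for SEMA3C (adjusted p = 0.0273). All 3 parental BYL719 libraries were above all 3 parental DMSO libraries for each gene. All 3 calls were lost without parental BYL719 replicate 2 or 3 or parental DMSO replicate 1 or 2, SEMA3C and SEMA6C were lost without parental BYL719 replicate 1, and leaving out parental DMSO replicate 3 ended that of SEMA3C (adjusted p 0.0527 to 0.15 over these). With effective-length offsets SEMA6C alone was called (adjusted p = 0.0228). Fitted on the parental libraries alone, 11 members were called, 7 that rose and 4 that fell, in a fit that called 3484 of 20114 genes, against 302 of 21079 in the fit of 12 libraries. Among the 11 were SEMA6D (adjusted p = 0.0149) and SEMA7A (adjusted p = 0.000687), whose log2 values in the fit of 12 libraries were 0.56 ± 0.179 and -0.40 ± 0.151.

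**Figure D4:**
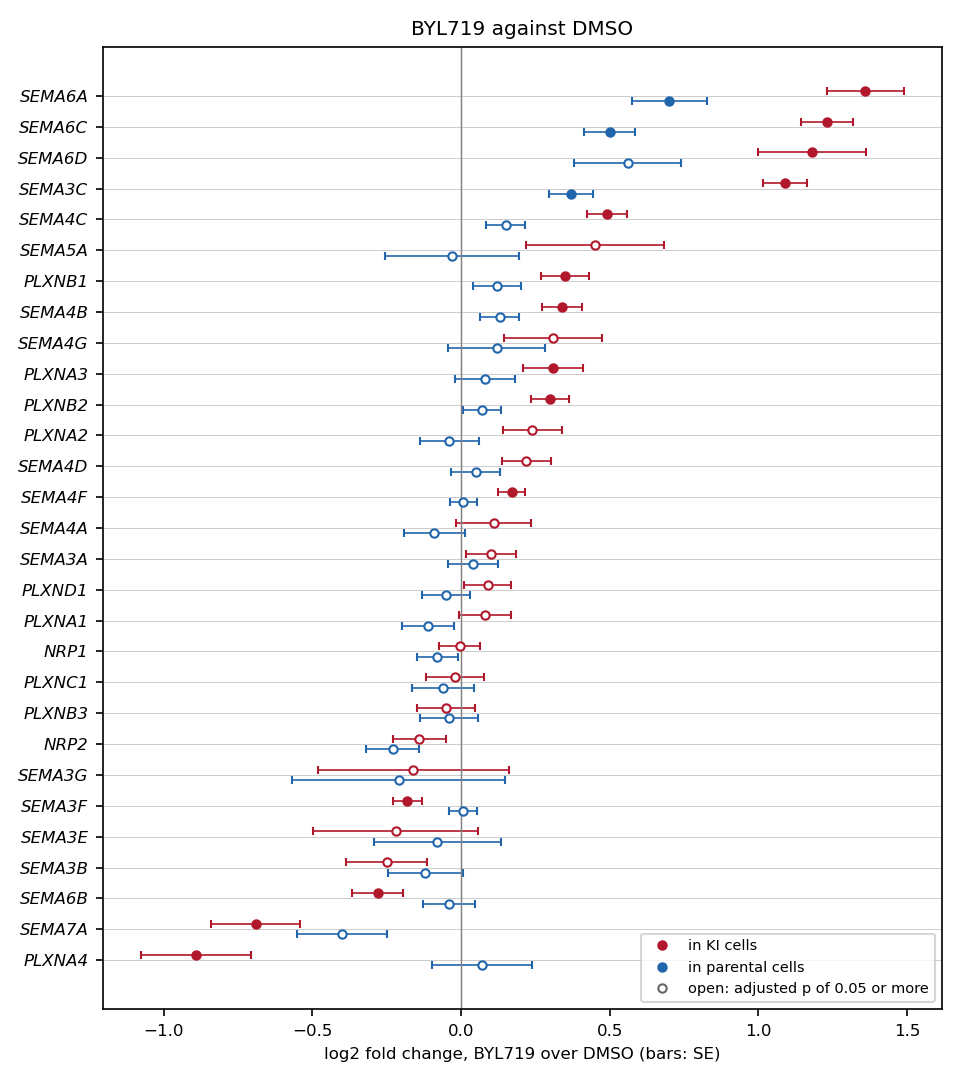
Log2 fold change of BYL719 over DMSO for the 29 tested members, in KI cells (upper point of each pair) and in parental cells (lower point), with bars of 1 SE; filled points have an adjusted p under 0.05. SEMA6A, SEMA6C, SEMA6D and SEMA3C have the largest positive values in KI cells, from 1.36 to 1.09, and their parental values lie between 0.70 and 0.37.

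The difference of the BYL719 effects, KI minus parental, was tested as an interaction. It was 0.72 ± 0.103 for SEMA3C (adjusted p = 0.00297), which was called in every alternative run, with adjusted p of at most 0.0405. For SEMA6C it was 0.72 ± 0.121 (adjusted p = 0.0081), and 0.53 (adjusted p = 0.118) with effective-length offsets. SEMA6A (0.67 ± 0.179, adjusted p = 0.0772), SEMA4C (0.34 ± 0.0939, adjusted p = 0.08) and PLXNA4 (-0.96 ± 0.251, adjusted p = 0.0682) did not pass. Without KI DMSO replicate 2 the count was 6: SEMA3C (0.62), SEMA6C (0.71), SEMA6A (0.53), SEMA4C (0.31) and PLXNB2 (0.14) were more positive in KI cells and SEMA3F (-0.21) was more negative. That fit called 1874 of 21525 genes, against 606 of 21079 with the library kept. In the fit of all libraries the median over the tested members was 0.168 and over all genes 0.0140. Most members with a positive difference had a smaller one when KI DMSO replicate 2 was left out. The median was not computed without that library.

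The tested members that were called in no comparison of the fit of 12 libraries were PLXNB3, PLXND1, SEMA3G, SEMA4G and SEMA5A. PLXND1, the receptor of SEMA3E, ranged from 23.5 to 24.6 CPM in KI BYL719, 18.6 to 24.7 CPM in KI DMSO, 20.9 to 21.2 CPM in parental BYL719 and 21.3 to 22 CPM in parental DMSO cells. Without KI DMSO replicate 2, its lowest library, PLXND1 was called in DMSO, at 0.19 for KI over parental (adjusted p = 0.000916). Under BYL719 the ranges of the lines did not overlap and the log2 fold change of PLXND1 was 0.22 ± 0.0797 (adjusted p = 0.069). It was called there without KI DMSO replicate 2 (adjusted p = 0.000176), without KI DMSO replicate 1 (adjusted p = 0.0498), and in a fit of the 6 BYL719 libraries by themselves (adjusted p = 0.00105). PLXNB3, a receptor of SEMA5A, ranged from 9.64 to 12.8 CPM in KI BYL719, 10.4 to 13.1 CPM in KI DMSO, 11.9 to 12 CPM in parental BYL719 and 11.2 to 13.2 CPM in parental DMSO cells. SEMA5A ranged from 1.15 to 1.78 CPM in KI BYL719, 0.641 to 1.37 CPM in KI DMSO, 1.39 to 1.64 CPM in parental BYL719 and 1.54 to 1.63 CPM in parental DMSO cells. SEMA4G lay between 1.01 and 1.92 CPM and overlaps MRPL43 on the opposite strand, which was at 66.9 to 75.7 TPM, so its counts are uncertain. SEMA3G had 52 estimated pairs over the KI BYL719 libraries, 56 over KI DMSO, 30 over parental BYL719 and 37 over parental DMSO libraries. The untested SEMA5B had 17 pairs in KI BYL719, 21 in KI DMSO, 17 in parental BYL719 and 26 in parental DMSO libraries. SEMA3D, also untested, had 2 in KI BYL719, 0 in KI DMSO, 14 in parental BYL719 and 12 in parental DMSO, where a count of 0 allows up to 3.

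Transcript tables showed how much of a member's level came from transcripts annotated as coding. For PLXNB1, coding transcripts held 19.8% of the gene's TPM in KI BYL719, 22.3% in KI DMSO, 19.8% in parental BYL719 and 21.6% in parental DMSO cells, and the leading transcript was one with a retained intron, PLXNB1-218. For PLXNA3 the shares were 21.6% in KI BYL719, 21.6% in KI DMSO, 20.5% in parental BYL719 and 23.7% in parental DMSO cells. The gene levels of both plexins per length therefore include transcripts that are not annotated as coding. SEMA4B was one of the members with coding transcripts whose shares differed between groups. SEMA4B-201 held 54.8% of its TPM in KI BYL719 and 44.7% in KI DMSO cells, and 51.4% in parental BYL719 and 50.9% in parental DMSO cells. SEMA4B-202 held 24.4% in KI BYL719, 35.3% in KI DMSO, 23.4% in parental BYL719 and 26.7% in parental DMSO cells. The library ranges of both shares in KI cells did not overlap between BYL719 and DMSO, at 51.9% to 57% in KI BYL719 against 42.5% to 46.6% in KI DMSO for SEMA4B-201. Other members showed this too, such as SEMA7A, where SEMA7A-202 held 30.3% to 35.9% in KI BYL719 and 8% to 24% in KI DMSO. In parental cells SEMA7A-202 held 28.2% to 43.8% with BYL719 and 12.1% to 26.1% in DMSO. A count of such transcripts over the members is not given here. For SEMA3C, SEMA3C-201 held 70.6% to 74.7% of the TPM in the 4 groups. In all, 18 members overlap another annotated gene, 15 of them on the opposite strand. Among these, PLXNA3 overlaps LAGE3 (14.4 to 22.3 TPM) and SEMA6A overlaps SEMA6A-AS1 (0.548 to 1.86 TPM). The limit on strand given for PLXNC1 holds for PLXNA3 and SEMA6A too.

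Partners of the family were counted from lists that were chosen with earlier results of these data known. Over all genes tested, 17.0% rose and 17.2% fell in KI cells in DMSO, and 15.1% rose and 13.2% fell with BYL719 in KI cells. Between the lines under BYL719, 11.4% of all genes rose and 10.9% fell. Of 12 tested partner receptors, 2 rose and 4 fell in KI cells in DMSO (median log2 fold change -0.22), and 7 rose with BYL719 in KI cells (median 0.23), where none of the list had a negative value with an unadjusted p under 0.05. Under BYL719, 2 rose and 2 fell between the lines. In DMSO, NRCAM, a co-receptor in SEMA3 complexes, rose by 0.89 ± 0.0989 (adjusted p = 2.31e-05), and ERBB2, a receptor kinase that couples to plexins B, fell by 0.52 (SE 0.0389, adjusted p = 7.42e-07). FLT4, another partner receptor, fell by 1.15 in KI cells in DMSO (SE 0.332, adjusted p = 0.018). Under BYL719 it was lower in KI than in parental cells by 1.34 (SE 0.33, adjusted p = 0.0104). With BYL719, KDR, a VEGF receptor that pairs with NRP1, rose by 1.22 ± 0.171 in KI cells (adjusted p = 0.00024) and by 0.89 ± 0.169 in parental cells (adjusted p = 0.022), and MET, another partner of PLXNB1, by 0.42 ± 0.111 in KI cells (adjusted p = 0.0145). Of the 5 VEGF ligands, 3 rose in KI cells in DMSO: PGF by 0.86 ± 0.134 (adjusted p = 0.00036), VEGFA by 0.61 ± 0.093 (adjusted p = 0.000272) and VEGFC by 0.24 ± 0.0741 (adjusted p = 0.0249). PGF and VEGFA fell with BYL719 in KI cells, by 0.78 and 0.31. Between the lines under BYL719, 2 of the 5 ligands, VEGFA and VEGFC, were higher in KI than in parental cells.

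Of 7 proteases that process semaphorins or neuropilins, 2 rose and 1 fell in KI cells in DMSO, 2 rose with BYL719 in KI cells, and 2 rose and 1 fell between the lines under BYL719. FURIN, which cleaves class 3 semaphorins, fell by 0.48 (SE 0.0507, adjusted p = 1.55e-05) in KI cells in DMSO. With BYL719 in KI cells it rose by 0.35 ± 0.0507 (adjusted p = 0.000309). Of 32 tested cytoplasmic effectors, 2 rose and 4 fell between the lines in DMSO, 5 rose and 4 fell with BYL719 in KI cells, and 5 rose and 5 fell between the lines under BYL719. The shares of all genes called were 34.2% between the lines in DMSO, 28.3% with BYL719 in KI cells and 22.3% between the lines under BYL719. With BYL719 in parental cells, KDR was the one gene of the 4 lists that edgeR called, against 1.43% of all genes tested. At an unadjusted p under 0.05 there, 2 partner receptors and 3 effectors were higher, and 1 partner receptor, 2 effectors and 1 VEGF ligand were lower. The share of all genes at that unadjusted threshold is not given here. RRAS2, an R-Ras family GTPase, fell by 0.45 in KI cells in DMSO (SE 0.045, adjusted p = 9.87e-06) and rose by 0.26 ± 0.045 with BYL719 in KI cells (adjusted p = 0.0012). RND3, a small GTP-binding protein that can bind plexins, fell by 0.44 with BYL719 in KI cells (SE 0.0593, adjusted p = 0.000181).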

How the data were processed

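Per the submitters' processing notes, reads of 2 × 150 nt were trimmed with Trim Galore 0.6.1 and cutadapt and quantified with Salmon 1.2.1 (GRCh38); DESeq2 1.28.1 is also named. The deposited tables give, for each of 207749 transcripts, expected counts (estimated read pairs, not normalized) and TPM, which the authors' Salmon run scaled to a fixed sum per library, and effective lengths. The expected counts were summed per gene and rounded. CPM were scaled by library total, and TPM were summed per gene to compare genes. The 12 MCF10A libraries were fitted together by group with edgeR 4.0.16 in R 4.3.3 (filterByExpr, TMM, robust quasi-likelihood fit, 8 residual degrees of freedom). Tests were two-sided with Benjamini-Hochberg adjustment over all 21079 genes, called under 0.05; the procedure was tested on simulated data. SE is the log2 fold change over the square root of F. Library values are given for every member called in at least 1 comparison, and genes of the partner lists are named from the 4 called with the largest change in each direction. Alternatives were RLE factors (DESeq2's scaling), library totals, no filter, DESeq2 1.42.0, the groups compared alone, a replicate block, effective-length offsets, coding transcripts only and each library left out. Coordinates are from GENCODE 29, matched for 31 of 31 members by identifier without version, since versions were the same for 16. Reads shared by transcripts were divided by Salmon, and this error is not in the tests. The mouse libraries of the series were not used here. The members and lists were chosen with earlier results of these data known.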

Additional observations from a re-analysis of the deposited data

Results flagged for a closer look

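The BYL719 effect differed between the lines for SEMA3C and SEMA6C by the interaction test of edgeR with adjustment over all genes. For SEMA3C the effect in KI cells minus that in parental cells was 0.72 on the log2 scale (adjusted p = 0.00297), with 1.09 in KI cells and 0.37 in parental cells. For SEMA6C it was also 0.72 (adjusted p = 0.0081), with 1.23 in KI cells and 0.50 in parental cells. Both genes were lower in KI DMSO than in parental DMSO cells, and KI DMSO replicate 2 was the lowest library for SEMA3C but not for SEMA6C; without it the differences were 0.62 and 0.71. No test for a single aberrant sample was made, since each group has 3 libraries.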

How the results depend on the processing

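Of 74 member results followed through 20 alternatives, 49 were called and 26 of these were called in every setting run. The value that turned was PLXNA4 with BYL719 in KI cells, 0.08 with effective-length offsets against -0.89, and its interaction, called in neither fit, was 0.35 against -0.96; the cause was not tested. Counts of called members moved by more than 1.5 times as follows. Fitting only the groups compared gave 11 for BYL719 in parental cells (against 3) and 8 for BYL719 in KI cells (against 14). Effective-length offsets gave 1 for BYL719 in parental cells, 8 for BYL719 in KI cells and 1 for the interaction (against 2). The interaction gave 5 with DESeq2 and 4 with coding transcripts only. Leaving out 1 library gave 13 to 20 members between the lines in DMSO, 10 to 15 under BYL719, 11 to 15 for BYL719 in KI cells, 0 to 4 for BYL719 in parental cells and 2 to 6 for the interaction, where 6 came without KI DMSO replicate 2. Over all genes, calls for BYL719 in parental cells were 302, and 1973 without KI DMSO replicate 2.

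Deviations of 18 same-numbered pairs correlated at -0.072 to 0.08, and those of different-numbered pairs at -0.077 to 0.075. The same-numbered values were mostly positive and the different-numbered ones mostly negative. Correlations this small cannot decide whether replicate numbers pair the libraries. With a replicate block, 18 members were called between the lines in DMSO, 12 between the lines under BYL719, 16 for BYL719 in KI cells, 3 for BYL719 in parental cells and 2 for the interaction. Other calls lost were, between the lines in DMSO, PLXNA1 (adjusted p = 0.096), PLXNA2 (0.0935) and SEMA3C (0.0695) with only the groups compared, PLXNA2 with offsets (0.209) and without the filter (0.0522), and SEMA7A with library totals (0.0555) and without the filter (0.0918). With BYL719 in KI cells, SEMA3F (0.114) and SEMA6B (0.143) were lost with only the groups compared, and SEMA3F (0.0742), SEMA6B (0.0575), SEMA4F (0.165) and PLXNA3 (0.281) with offsets; PLXNA3 was lost with library totals (0.0543) and without the filter (0.0596), and SEMA4F without the filter (0.142) and with coding transcripts only (0.453). Under BYL719, NRP2 was lost with library totals (0.0584) and SEMA4D with offsets (0.0589). The interaction could not be fitted on 2 groups. SEMA3E, PLXNA4, SEMA3G, SEMA3D and SEMA5B were limited by depth.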
